A study of Mus musculus with 59 samples.

Results

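The LIF, gp130 and STAT3 pathway was followed through 10 genes in the uterus of mated female mice with and without epithelial oestrogen receptor alpha. The genes were the cytokine ligands Lif, Il6 and Il11, the receptor subunits Il6st, Lifr, Osmr, Il6ra and Il11ra1, the transcription factor Stat3 and the feedback inhibitor Socs3. They were chosen by symbol, all 10 were found among the 21706 genes of the tables, and all 10 passed the filter on low counts in every fit. LIF is a secreted cytokine that binds LIFR, which pairs with gp130, the product of Il6st. JAK kinases bound to the pair then phosphorylate STAT3, which enters the nucleus and switches on genes such as Socs3, whose protein in turn blocks the receptor. IL6, IL11 and oncostatin M use gp130 with the partner subunits IL6RA, IL11RA1 and OSMR, and in mice LIF acting on the luminal epithelium is required for embryo implantation.

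Every female was Esr1f/-, with 1 floxed and 1 null Esr1 allele, so that controls too had a single functional copy of the gene in every tissue. Knockout females, epiERα-/- (Esr1f/-Wnt7aCre/+), had in addition the Wnt7aCre transgene, which acts in the epithelium of the uterus and was meant to remove Esr1 there while stroma and muscle keep it. Virgins aged about 2 to 6 months were mated with Esr1f/f or C57BL/6 stud males and taken at day 3.5 (D3.5) or day 0.5 (D0.5, the day of the plug) after coitus, with littermates of a genotype spread over the days. Luminal epithelium (LE) scraped off after dispase digestion was sequenced from 6 knockout and 4 control mice at D3.5 and from 7 knockout and 9 control mice at D0.5. A piece of the digested uterus (DU) was sequenced from 3 knockout and 3 control mice at D3.5 and from 3 knockout and 4 control mice at D0.5. A piece of undigested whole uterus (U) was sequenced from 5 knockout and 5 control mice at D3.5 and from 4 knockout and 6 control mice at D0.5. The 59 libraries came from 29 mice, and each library of a group is another mouse, so that p-values within a tissue measure the spread between mice. Joint fits of 2 tissues took libraries of the same mouse as independent unless the mouse was a block, so their p-values do not measure that spread alone.

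Levels are given as CPM, a counts-per-million scale after TMM scaling (which evens out library composition) within a tissue; the libraries held 11.3 to 108 M estimated counts (M for mega), with a median of 19.5 M. Esr1 stood at 34.8 to 73.2 CPM in knockout LE and at 104 to 273 CPM in control LE, with no overlap; in DU and U the gap was narrower, and in U the groups overlapped. The U library labelled knockout mouse 33 at D3.5 held 212 CPM of Esr1, above all 5 of its controls (135 to 195 CPM). Esr1 in U does not settle the genotype of a single mouse. There, knockout mice 32 and 34 (148 and 149 CPM) also lay above control mouse 14 (135 CPM) at D3.5. Mouse 33 gave no LE library in which its label could be checked, so results in U at D3.5 are given with and without it. Mouse 33 held the highest knockout value in U at D3.5 for Lif, Il6st, Stat3, Socs3 and Osmr. Leaving it out lowers their knockout level by construction, so the refits without it are a description and decide nothing. Summed CPM of 6 neutrophil markers at D0.5 lay at 934 to 3472 in knockout LE against 3.52 to 399 in control LE, at 1231 to 3017 against 80.5 to 635 in DU, and at 1575 to 3027 against 74.6 to 952 in U. Of the 6 markers, 6 were called higher in knockouts in LE, 4 in DU and 3 in U, and none was at 0 in a whole group. Of all genes 10.9% were called higher in LE, 3.89% in DU and 2.02% in U at D0.5. At D3.5 the same sum was 3.26 to 17.5 in knockout LE and 2.12 to 8.28 in control LE. Set against the labels, 8 epithelial markers summed to 2796 to 11735 CPM in LE and 476 to 7004 CPM in U. The 6 smooth muscle markers summed to 19.7 to 237 CPM in LE and 5432 to 16221 CPM in U, while 7 stromal markers summed to 509 to 5729 CPM in LE and 10188 to 23400.5 CPM in U. In these bulk samples, fewer cells of a type and less RNA per cell cannot be told apart. The RNA of each tissue was isolated as its own batch, so differences between tissues and between isolations cannot be told apart either.

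Per transcript length, Stat3, Il6st, Socs3 and Lif were the most abundant of the 10 genes in LE. The mean of the 4 group means of TPM (a transcripts-per-million scale that takes gene length into account) was 116 in LE, 114 in DU and 95.6 in U for Stat3. For Il6st it was 61.4 in LE, 171 in DU and 127 in U. Lif averaged 50.4, Socs3 50.5 and Osmr 34.2 TPM in LE. Lifr, which gives LIF its binding subunit, stood at 12.8 TPM in LE, 8.76 in DU and 6.99 in U. Il6ra, the binding subunit for IL6, stood at 5.52 TPM in LE, 12.8 in DU and 9.31 in U, and Il11ra1 at 13.8 TPM in LE, 46.6 in DU and 47.9 in U. Il6 averaged 5.00 TPM in LE, 2.34 in DU and 1.60 in U, and Il11 stayed under 1 TPM on average in all 3 tissues.

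**Figure D1:**
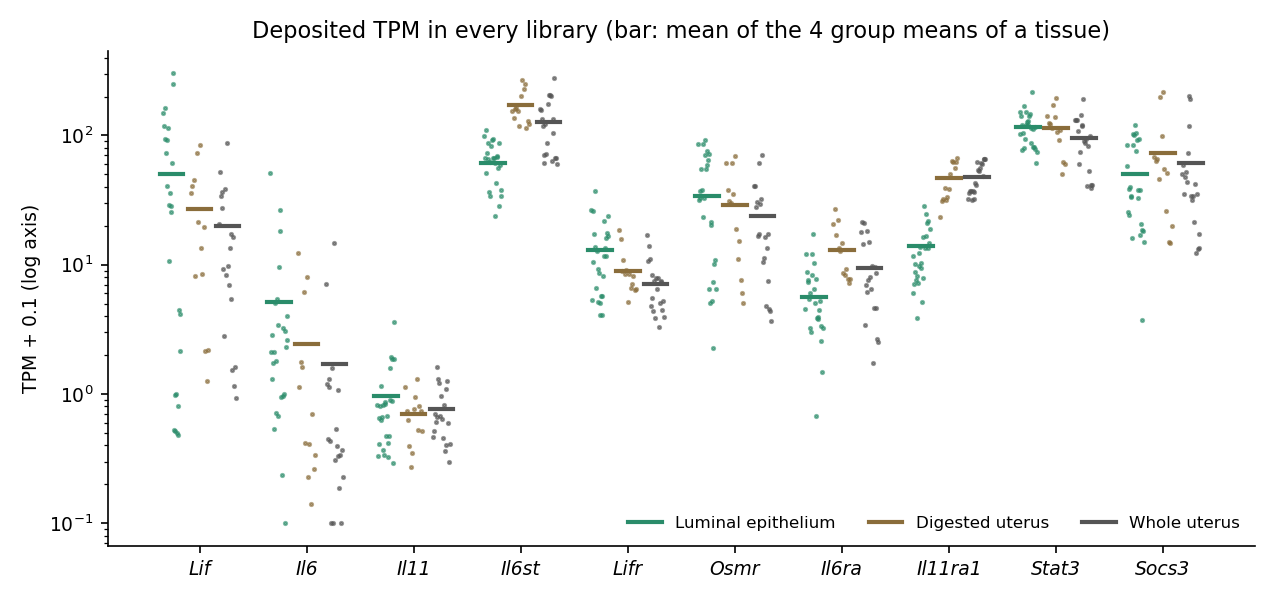
Deposited TPM of the 10 genes in every library (points, with 0.1 added, on a log axis) in luminal epithelium, digested uterus and whole uterus, with bars at the mean of a tissue's 4 group means. Il6st and Il11ra1 sit lower in luminal epithelium (61.4 and 13.8 TPM) than in whole uterus (127 and 47.9 TPM), and Il11 sits lowest of the 10 genes.

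Across tissues, 8 of the 10 genes differed between LE and U, 5 higher and 3 lower in LE, where 65.8% of all tested genes were called, 31% higher and 34.7% lower (adjusted p under 0.05 in the quasi-likelihood test of edgeR, averaging the 4 groups of a tissue). Lifr (log2 fold change 1.09 ± 0.16, SE), Stat3 (0.62 ± 0.09), Osmr (0.63 ± 0.18), Il6 (2.46 ± 0.62) and Il11 (0.60 ± 0.24) were higher in LE. The receptor genes Il11ra1 (-1.64 ± 0.12), Il6ra (-0.52 ± 0.17) and Il6st (-0.44 ± 0.13) were lower in LE. Lif (-0.16 ± 0.39) and Socs3 (0.11 ± 0.16) did not pass the test. The same 8 genes in the same directions were called between LE and DU, where 66.7% of all genes were called. On log2(TPM + 1), where the median of all genes shifted by -0.37 between LE and DU, Stat3 (0.07), Osmr (0.05), Lifr (0.36) and Il6 (0.62) were no longer called as higher in LE. With the mouse as a block, Il11 lost its call between LE and U (adjusted p = 0.198) and between LE and DU (adjusted p = 0.221), and Osmr lost it between LE and DU (adjusted p = 0.0757). Without D3.5 control mouse 16 in LE, Il11 was not called between LE and U either (0.41, adjusted p = 0.127).

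The digested and undigested pieces differed little in the size of these genes' levels, and whether they differed by the test depended on the fit used. Between DU and U none of the 10 genes and 0% of all 16782 tested genes were called by edgeR, although 4055 genes, Il11ra1 among the 10 (-0.27 ± 0.10), had an unadjusted p under 0.05. In the 13 mice that gave both pieces, the fit blocked by mouse called 7082 genes. It called 6 of the 10: Il11ra1 lower in DU (log2 fold change -0.37, adjusted p = 0.00102), and Lifr (0.23), Il6ra (0.40), Il6st (0.34), Stat3 (0.16) and Osmr (0.24) higher in DU. Lif (-0.12 ± 0.40 without the block) and Socs3 (0.02 ± 0.15) passed neither test. Voom with sample weights called 2 of the 10, Il11ra1 and Il6st, and 3498 of all genes.

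Of the 60 comparisons of knockout with control (10 genes, 3 tissues, 2 days), 12 were called, 4 higher and 8 lower in knockouts, and 24 had an unadjusted p under 0.05. At D3.5, 3 of the 10 genes fell in knockout LE (Stat3, Socs3 and Osmr), 2 fell in knockout DU (Il6st and Stat3) and 0 passed in U, where 4 had an unadjusted p under 0.05. Voom with sample weights, which gives less weight to libraries that depart from their group, called 5 in U at D3.5 (Lif, Il6st, Stat3, Socs3 and Osmr, all lower in knockouts) where it called 1439 of all genes, and DESeq2 called 0 where it called 78 of all genes. Without mouse 33, edgeR called 2 of the 10 (Il6st and Stat3) and 112 of all genes. By edgeR all tested genes were called at 13.5% in LE, 0.574% in DU and 0.0185% (3 genes) in U. At D0.5, Socs3 rose in all 3 knockout tissues. Besides it, Lifr fell in LE and DU, Stat3 rose in DU and Il6ra fell in DU. That makes 2 of 10 genes in LE (23.6% of all genes called), 4 of 10 in DU (8.06%) and 1 of 10 in U (4.98%). The median log2 fold change of the 10 genes was below 0 at D3.5 in each tissue (-0.40 in LE, -0.41 in DU, -0.56 in U) and above 0 at D0.5 (0.21 in LE, 0.23 in DU, 0.31 in U), while the median of all genes stayed within -0.01 to 0.02. On log2(TPM + 0.1) the median of all genes itself shifted by 0.43 in LE at D3.5, where Il6st stood near 0 (0.01) and Stat3 and Socs3 kept their calls.

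**Figure D2:**
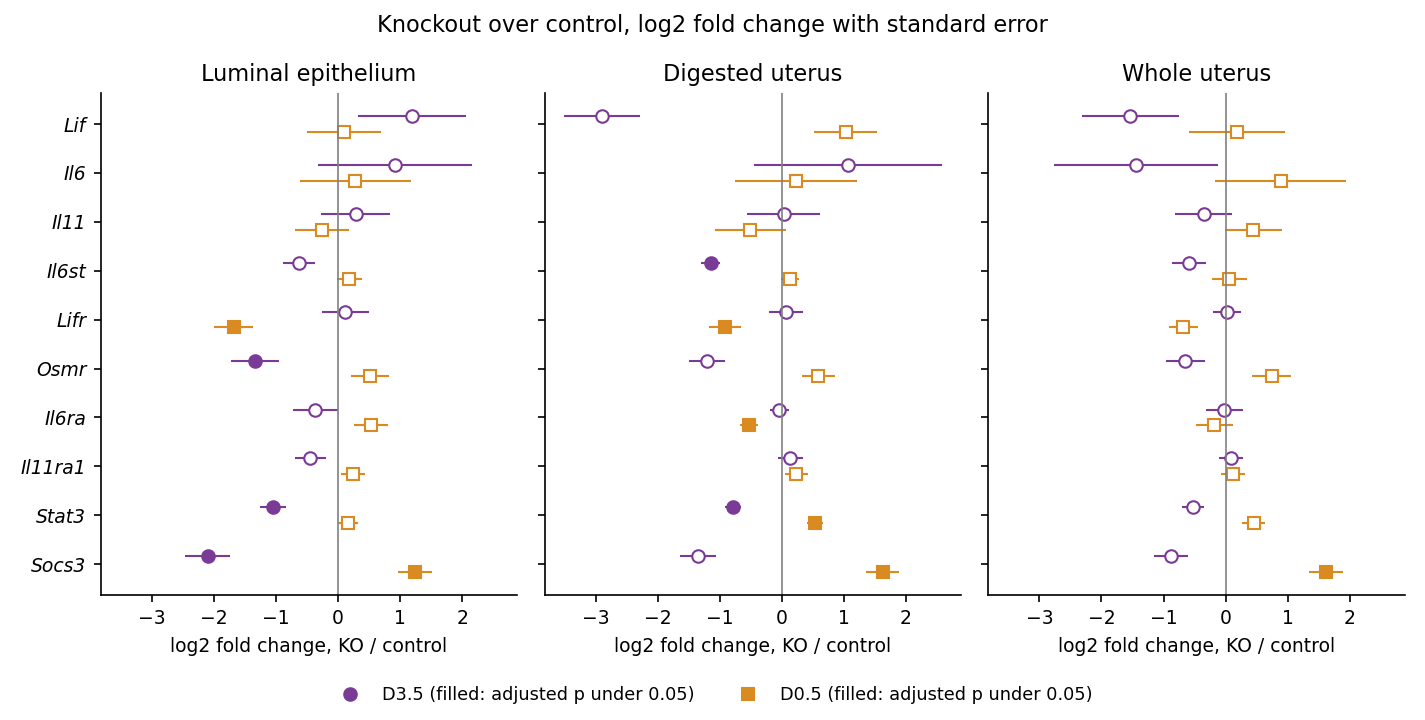
Log2 fold change of knockout over control for the 10 genes (points) with its standard error (lines) in each tissue at D3.5 and D0.5, filled where adjusted p was under 0.05. Socs3 lies left of 0 at D3.5 and right of 0 at D0.5 in all 3 tissues, and Lifr lies left of 0 at D0.5.

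Promoter sequences are shown for the ligand gene Lif and for Osmr, Stat3 and Socs3, the genes that fell together in knockout LE at D3.5. Each runs from 250 bases before to 50 after the transcript start in RefSeq's GRCm38.p6, given on the gene's own strand; the files name a later build and carry no coordinates. Capitals mark TGACTCA (an AP-1 motif, the letters bound by FOS and JUN) in Lif and TTCNNNGAA (a STAT motif) in Socs3. Both strands were searched, and no match overlapped another.
Lif (chr11:4257318-4257617, plus strand): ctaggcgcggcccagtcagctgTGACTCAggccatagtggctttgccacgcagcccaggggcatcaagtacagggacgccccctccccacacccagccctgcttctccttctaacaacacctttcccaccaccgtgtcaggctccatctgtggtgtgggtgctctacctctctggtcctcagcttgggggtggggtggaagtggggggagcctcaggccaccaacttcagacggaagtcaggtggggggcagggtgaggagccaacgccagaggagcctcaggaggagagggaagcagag
Osmr (chr15:6874264-6874563, minus strand): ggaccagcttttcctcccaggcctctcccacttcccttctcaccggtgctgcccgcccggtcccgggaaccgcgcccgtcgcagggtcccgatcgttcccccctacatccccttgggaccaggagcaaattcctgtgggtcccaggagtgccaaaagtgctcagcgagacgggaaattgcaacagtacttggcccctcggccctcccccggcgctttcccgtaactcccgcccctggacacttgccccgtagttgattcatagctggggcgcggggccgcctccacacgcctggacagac
Stat3 (chr11:100939491-100939790, minus strand): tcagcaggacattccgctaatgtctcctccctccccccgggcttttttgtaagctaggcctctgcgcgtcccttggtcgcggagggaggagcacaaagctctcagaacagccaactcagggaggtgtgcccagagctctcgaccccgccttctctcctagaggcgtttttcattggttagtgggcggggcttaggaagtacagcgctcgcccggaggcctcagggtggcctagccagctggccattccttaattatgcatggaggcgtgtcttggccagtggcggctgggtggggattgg
Socs3 (chr11:117969317-117969616, minus strand): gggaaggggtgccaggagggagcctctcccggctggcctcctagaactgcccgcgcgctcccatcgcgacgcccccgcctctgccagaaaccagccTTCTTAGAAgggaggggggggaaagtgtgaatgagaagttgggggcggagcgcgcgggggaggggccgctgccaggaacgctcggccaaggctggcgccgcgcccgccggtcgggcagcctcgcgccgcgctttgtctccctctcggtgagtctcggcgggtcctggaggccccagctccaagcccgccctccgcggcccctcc
The Socs3 match lies at positions -154 to -146 counted from the start, and 8.3% of the 32851 mouse promoter windows of this length hold the STAT motif. The Lif match lies at positions -228 to -222 counted from the start, and 5.2% of windows hold the AP-1 motif, as do those of Il6 and of a second start of Il11. The oestrogen response element, searched as its full palindrome with a spacer of 3 bases, is in 0.07% of windows and in none of the 13 windows of the 10 genes. The Osmr and Stat3 windows hold none of the 3 motifs, and no binding was measured here.

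Among the ligands, Lif, the cytokine that gives the pathway its role in implantation, was the one with high levels, and its largest difference was between days. At D3.5 in LE the knockouts held 1.02, 1.70, 1.02, 9.67, 10.3 and 5.00 CPM, against 1.79, 1.28, 2.16 and 3.19 CPM in controls. At D0.5 in LE the knockouts held 32.2, 123, 82.1, 91.8, 210.3, 950.4 and 1167 CPM, against a lowest, median and highest of 111, 341 and 664 CPM in controls. Every D3.5 library of LE lay below every D0.5 library (groups of the days did not overlap for 21.5% of all genes in knockouts and 23.9% in controls), while knockouts and controls overlapped on both days. The log2 fold change of D3.5 over D0.5 was -6.31 ± 0.87 in knockout LE (adjusted p = 1.58e-06) and -7.42 ± 1.11 in control LE (adjusted p = 4.35e-06). Between the genotypes Lif did not pass in LE at D3.5 (1.20 ± 0.87, adjusted p = 0.424) or at D0.5 (0.09 ± 0.60, adjusted p = 0.937). Knockout mice 35, 36 and 37, which hold the 3 highest Lif values at D3.5, also had the lowest summed red blood cell markers of that group (28.9 to 156 CPM, against 324 to 475 CPM in the other 3). Leaving out the mice with the highest values lowers the knockout level by construction, so the refits without them are a description and decide nothing. Without these 3 mice the uncalled genotype difference at D3.5 was of the other sign (-0.69, adjusted p = 0.759), and the difference between days in knockout LE was larger (-8.26, adjusted p = 1.22e-05). The interaction of genotype and day, 1.11 with all mice (adjusted p = 0.53), was -0.82 without them (adjusted p = 0.715).

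In DU and U, which hold stroma and glands, Lif at D3.5 lay lower in most knockouts without passing the test. In DU at D3.5 the knockouts held 5.87, 3.30 and 5.85 CPM of Lif, against 34.9, 23.5 and 53.9 CPM in controls, with no overlap, as in 18.9% of all genes. The log2 fold change was -2.90 ± 0.61 and missed the threshold (adjusted p = 0.0577); it was called by DESeq2 (adjusted p = 0.00118), with no filter (0.0443), with the D3.5 groups alone (0.00259), and without knockout mouse 26 (0.0286) or control mouse 9 (0.0151) of D0.5. In U at D3.5 knockout mice 32, 34, 35 and 37 held 4.30, 3.63, 4.92 and 2.89 CPM and mouse 33 held 41.2 CPM, against 27.2, 19.2, 37.6, 23.0 and 56.4 CPM in controls. Lif in mouse 33, whose Esr1 lay above that of its controls, lay within the control range, and the other 4 knockouts lay below all controls. With mouse 33 the log2 fold change in U was -1.53 ± 0.79 (adjusted p = 1), and without it -3.07 (adjusted p = 0.0623). The summed gland markers at D3.5 overlapped between genotypes, at 84.0 to 97.7 CPM in knockouts against 73.8 to 121 CPM in controls in DU, and at 73.1 to 172 against 79.5 to 199.8 CPM in U. Single gland genes differed more than the sum. Wfdc3 averaged 0.0755 CPM in knockouts and 12.3 CPM in controls in DU (adjusted p = 0.00272), and 2.16 and 17.0 CPM in U (adjusted p = 0.553). Prss29 averaged 0.0818 CPM in knockouts and 9.04 CPM in controls in U (adjusted p = 0.193), while Spink1 averaged 67.8 and 39.5 CPM there (adjusted p = 1). The part of these gland genes in the Lif values was not tested.

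At D0.5, Lif spread widely within each genotype outside the epithelium as well. In DU it stood at 246, 73.7 and 287 CPM in knockouts, against 106, 123, 141 and 26.0 CPM in controls. In U it stood at 8.55, 153, 30.8 and 287 CPM in knockouts, against 38.2 to 166 CPM in controls. Groups overlapped in both tissues, and neither difference passed (DU 1.03 ± 0.51, adjusted p = 0.23; U 0.19 ± 0.77, adjusted p = 0.967). In DU the log2 fold change of D3.5 over D0.5 was -5.33 ± 0.67 in knockouts and -1.40 ± 0.53 in controls, a difference of -3.94 ± 0.79 (adjusted p = 0.0235). That call was lost on log2(TPM + 1) (adjusted p = 0.0589) and in 6 of 13 refits with 1 library left out, with adjusted p of 0.0518 to 0.0705: those without D0.5 knockout mouse 25 or 27, D3.5 knockout mouse 32, 34 or 35, or D3.5 control mouse 16.

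**Figure D3:**
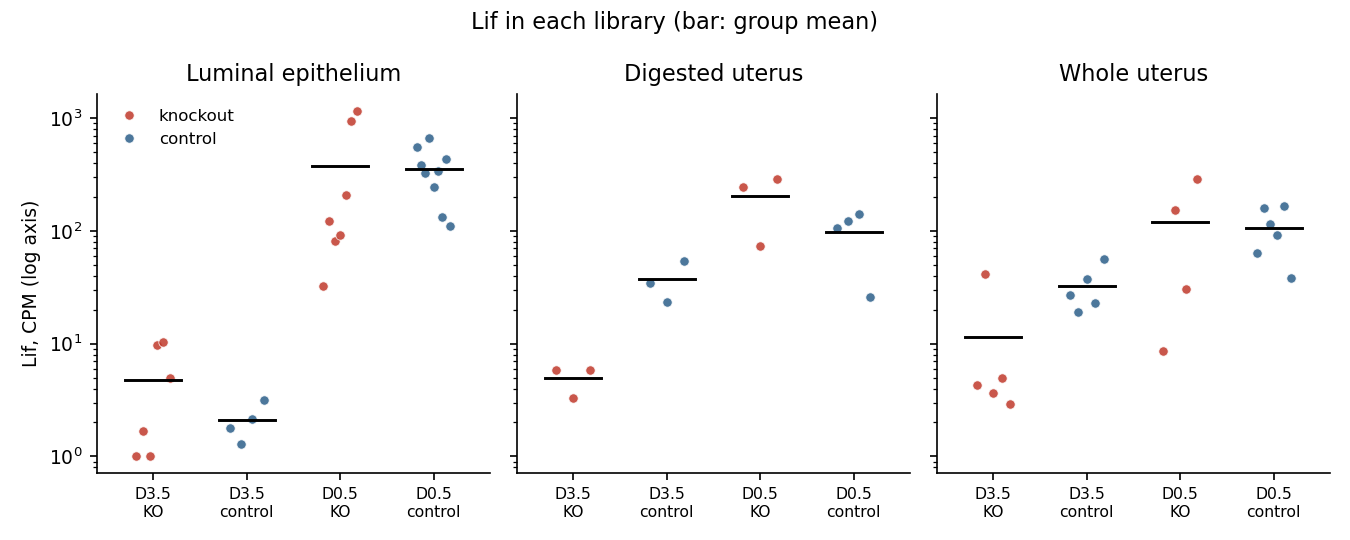
Lif in CPM (log axis) in each library (points) of the 3 tissues by day and genotype, with bars at group means. Luminal epithelium falls to 1.02 to 10.3 CPM at D3.5 in both genotypes, and in digested and whole uterus the D3.5 knockouts sit below the controls except for mouse 33 at 41.2 CPM.

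Il6, which encodes an inflammatory cytokine, was low and uneven. At D0.5 in LE knockouts held 0.563 to 27.1 CPM with a median of 4.20, against 0.344 to 49.5 CPM with a median of 1.73 in controls. Control mouse 1 alone held 49.5 CPM, and the next control held 4.46 CPM. With mouse 1 the genotype difference did not pass (0.28 ± 0.89, adjusted p = 0.871), and without it Il6 was called higher in knockouts (2.21, adjusted p = 0.028). Leaving out the highest control lowers the control level by construction, so that refit is a description and decides nothing. Il6 fell at D3.5 in knockout U (-4.83 ± 1.34, adjusted p = 0.0104) and in both genotypes of DU (-4.08 ± 1.28 in knockouts, -4.92 ± 1.35 in controls). The fall in knockout U rests on few libraries. At D0.5, 2 of its libraries held under 0.5 estimated counts of Il6, and 1 library held 219 of the group's 372. At D3.5 the group held 13 counts in all, and the two-sided exact permutation p between the days was 0.381. Il11, which encodes a cytokine of the decidua, stayed at or under 2.50 CPM in every library, and none of its comparisons of genotype or day passed, except that between days in knockout LE without D3.5 knockout mouse 35 (1.13, adjusted p = 0.0462) and in knockout U by voom.

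Of the receptor genes, Il6st, which encodes the shared gp130 subunit, had its clearest genotype difference in DU at D3.5. Knockouts held 419, 554 and 500.3 CPM, against 1069, 1107 and 1082 CPM in controls. The groups did not overlap, as in 18.9% of all genes. The log2 fold change was -1.15 ± 0.15 (adjusted p = 0.00392), and the call held under all 7 other settings and in each of 13 refits with a library left out. In U at D3.5 knockouts held 486, 414, 355 and 367 CPM with 1074 CPM in mouse 33, against 574 to 912 CPM in controls. There Il6st did not pass with mouse 33 (-0.59 ± 0.27, adjusted p = 1) and passed without it (-1.01, adjusted p = 0.0259). In LE at D3.5 the groups overlapped, at 176 to 316 CPM (median 234) in knockouts and 234 to 568 CPM in controls (-0.62 ± 0.26, adjusted p = 0.12). At D0.5 Il6st did not differ by the test in any tissue (0.06 to 0.18 on the log2 scale).

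Lifr, the binding subunit for LIF, fell in knockout LE and DU at D0.5. In LE at D0.5 the lowest, median and highest values were 16.7, 27.2 and 52.2 CPM in knockouts and 30.8, 95.5 and 198 CPM in controls. Control mice 2 and 8 (30.8 and 42.7 CPM) lay inside the knockout range and the other 7 controls lay above it. Lifr was 3.21-fold lower in knockout LE (log2 fold change -1.68 ± 0.31, adjusted p = 0.000248; two-sided exact permutation p = 0.00201). In the same libraries 8 epithelial markers summed to 2796 to 5077 CPM in knockouts and 6082 to 11735 CPM in controls. Of them 0 were called higher and 3 lower, against 10.9% and 12.6% of all genes. In DU they summed to 1530 to 1684 CPM in knockouts and 1957 to 4289 CPM in controls, and the neutrophil sums are given above. The part of these markers in the result was not tested. At D3.5 in LE Lifr stood at 64.0 to 126 CPM in knockouts and 52.7 to 125 CPM in controls (0.12 ± 0.38, adjusted p = 0.885). In DU at D0.5 it held 36.7, 53.9 and 25.0 CPM in knockouts, against 88.3, 87.9, 50.5 and 63.5 CPM in controls (-0.91 ± 0.26, adjusted p = 0.0479). The DU call was lost in 10 of 13 refits with 1 library left out (adjusted p 0.0525 to 0.151). It held only without control mouse 8 of D0.5, knockout mouse 26 of D0.5 or knockout mouse 32 of D3.5. In U at D0.5 Lifr did not pass (-0.68 ± 0.24, adjusted p = 0.118) except without knockout mouse 21 (-0.88, adjusted p = 0.0404) or by voom (adjusted p = 0.00869).

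Osmr, the partner subunit for oncostatin M, fell in knockout LE at D3.5. In LE at D3.5 it held 8.65 to 38.1 CPM (median 23.1) in knockouts, against 39.9, 21.3, 78.8 and 104 CPM in controls. The groups overlapped at control mouse 14 (21.3 CPM), and the difference was -1.34 ± 0.38 (adjusted p = 0.0193). The two-sided exact permutation p was 0.0571. The call was lost without control mouse 15 (-1.19, adjusted p = 0.067) or 16 (-0.95, adjusted p = 0.129), by voom (adjusted p = 0.0671), on log2(TPM + 1) (-0.71, adjusted p = 0.155), with the D3.5 groups alone (adjusted p = 0.0736) and without control mice 11 and 15 together (-1.37, adjusted p = 0.0816). In DU at D3.5 Osmr stood at 31.8, 23.9 and 19.5 CPM in knockouts, against 69.3, 44.7 and 59.5 CPM in controls, without overlap, as in 18.9% of all genes. It missed the threshold (-1.21 ± 0.30, adjusted p = 0.128) except by DESeq2 (0.0064), voom (0.0122), with the D3.5 groups alone (0.0254) or without control mouse 1 of D0.5 (0.0418). At D0.5 Osmr stood at 252 to 405 CPM in knockout LE and 126 to 456 CPM in control LE (0.52 ± 0.30, adjusted p = 0.238). In DU at D0.5 the difference of 0.59 passed only by voom (adjusted p = 0.0446) and without control mouse 1 (0.84, adjusted p = 0.0438). In U at D3.5 it did not pass with mouse 33 (-0.65, adjusted p = 1) or without it (-1.08, adjusted p = 0.0655). Il6ra fell in knockout DU at D0.5, with 58.9, 62.3 and 68.8 CPM in knockouts against 86.8, 112, 69.7 and 97.7 CPM in controls (-0.53 ± 0.15, adjusted p = 0.0404). That call too was lost in 10 of 13 refits with 1 library left out (adjusted p 0.054 to 0.131), and held without control mouse 1 or 8 of D0.5 or knockout mouse 32 of D3.5. Il11ra1 passed in none of the 6 genotype comparisons; its reads may be shared with the near copy Il11ra2, so its estimates are uncertain.

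Stat3, the transcription factor that gp130 receptors activate, fell in knockout LE and DU at D3.5. In LE at D3.5 knockouts held 171 to 373 CPM (median 213), against 443, 396, 648 and 467 CPM in controls. The highest knockout, mouse 34 at 373 CPM, lay below the lowest control, and 10% of all genes had groups that did not overlap. The log2 fold change of -1.05 ± 0.21 (adjusted p = 0.000916) held under all 10 other settings, with adjusted p up to 0.0455, and in all 26 refits with a library left out; the two-sided exact permutation p of 0.00476 is the smallest that 6 against 4 libraries allow. In these libraries 7 gland markers summed to 56.8 to 168 CPM in knockouts and 3.23 to 9.03 CPM in controls. Of them 3 were called higher and 0 lower, against 7.79% and 5.7% of all tested genes. The gland genes Prss28 and Prss29 did not pass the filter on low counts in LE and could not be called. Among the 7, 2 were at 0 in all knockouts and 1 at 0 in all controls. The part of the gland markers in the LE results at D3.5 was not tested. In DU at D3.5 Stat3 held 174, 200.4 and 186 CPM in knockouts, against 321, 298 and 345 CPM in controls (-0.78 ± 0.13, adjusted p = 0.0156). With 3 against 3 libraries, the two-sided exact permutation p of a genotype difference in DU at D3.5 cannot fall below 0.1. This DU call was lost without any 1 of the 3 knockouts or without control mouse 11 or 16, with adjusted p of 0.0507 to 0.0998, while the log2 fold change stayed between -0.85 and -0.73. In U at D3.5 it held 176, 169, 150.1 and 169 CPM in 4 knockouts and 289 CPM in mouse 33, against 205 to 310.4 CPM in controls. It passed without mouse 33 (-0.73, adjusted p = 0.0294) and not with it (-0.53 ± 0.18, adjusted p = 0.686).

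At D0.5 the sign of the Stat3 difference was positive in each tissue. In DU it held 646, 536 and 736 CPM in knockouts, against 485, 433, 432 and 415 CPM in controls (0.54 ± 0.12, adjusted p = 0.0195), as non-overlapping as 17.7% of all genes. The call was lost without knockout mouse 25 or 27 or control mouse 5 (adjusted p 0.0567 to 0.08), on log2(TPM + 1) (0.41, adjusted p = 0.0753) and with the D0.5 groups alone (adjusted p = 0.1). In U it held 519, 557, 510.4 and 703 CPM in knockouts, against 319.5 to 506 CPM in controls, with no overlap (as in 4.56% of all genes) and no call (0.45 ± 0.18, adjusted p = 0.191). In LE the groups overlapped, with medians of 504 CPM in knockouts and 444 CPM in controls (0.16 ± 0.16, adjusted p = 0.532).

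Socs3, the gene of the feedback inhibitor and a standard readout of STAT3 activity, differed between the genotypes in LE on both days, in opposite directions. In LE at D3.5 knockouts held a lowest, median and highest of 6.36, 26.8 and 29.7 CPM, against 102, 60.7, 153 and 86.4 CPM in controls, with no overlap, as in 10% of all genes. The level was 4.29-fold lower in knockouts (log2 fold change -2.10 ± 0.36, adjusted p = 0.000187), and the call held under all 10 other settings (adjusted p up to 0.0179) and in all 26 refits with a library left out. At D0.5 in LE the order was the other way: knockouts held 163, 203 and 247 CPM as lowest, median and highest, against 38.8, 81.1 and 194 CPM in controls. Control mouse 1, at 194 CPM, was the single control inside the knockout range (1.24 ± 0.28, adjusted p = 0.0015; two-sided exact permutation p = 0.000612). The same pair of signs appeared in the other tissues. In DU Socs3 held 27.5, 25.7 and 34.0 CPM in knockouts against 89.0, 45.9 and 87.9 CPM in controls at D3.5 (-1.35 ± 0.29, adjusted p = 0.0631). That difference passed by DESeq2 (adjusted p = 0.000653), by voom (0.0353), with the D3.5 groups alone (0.0263), and without control mouse 14 (-1.60, adjusted p = 0.029) or knockout mouse 26 of D0.5 (0.0188). At D0.5 it held 413, 208 and 456 CPM in knockout DU against 126, 119, 127 and 93.3 CPM in control DU (1.62 ± 0.26, adjusted p = 0.00289). In U it held 22.0, 29.1, 36.2 and 30.0 CPM in knockouts and 55.4 CPM in mouse 33, against 54.2 to 85.5 CPM in controls at D3.5 (-0.88 ± 0.28, adjusted p = 0.573; -1.12 and 0.0852 without mouse 33). At D0.5 it held 144, 504, 275 and 391 CPM in knockout U against 73.4 to 149 CPM in control U (1.62 ± 0.28, adjusted p = 0.00137). The neutrophil marker sums given above were higher in the same D0.5 knockout libraries of all 3 tissues, and their part in the D0.5 differences of Socs3 and Stat3 was not tested.

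**Figure D4:**
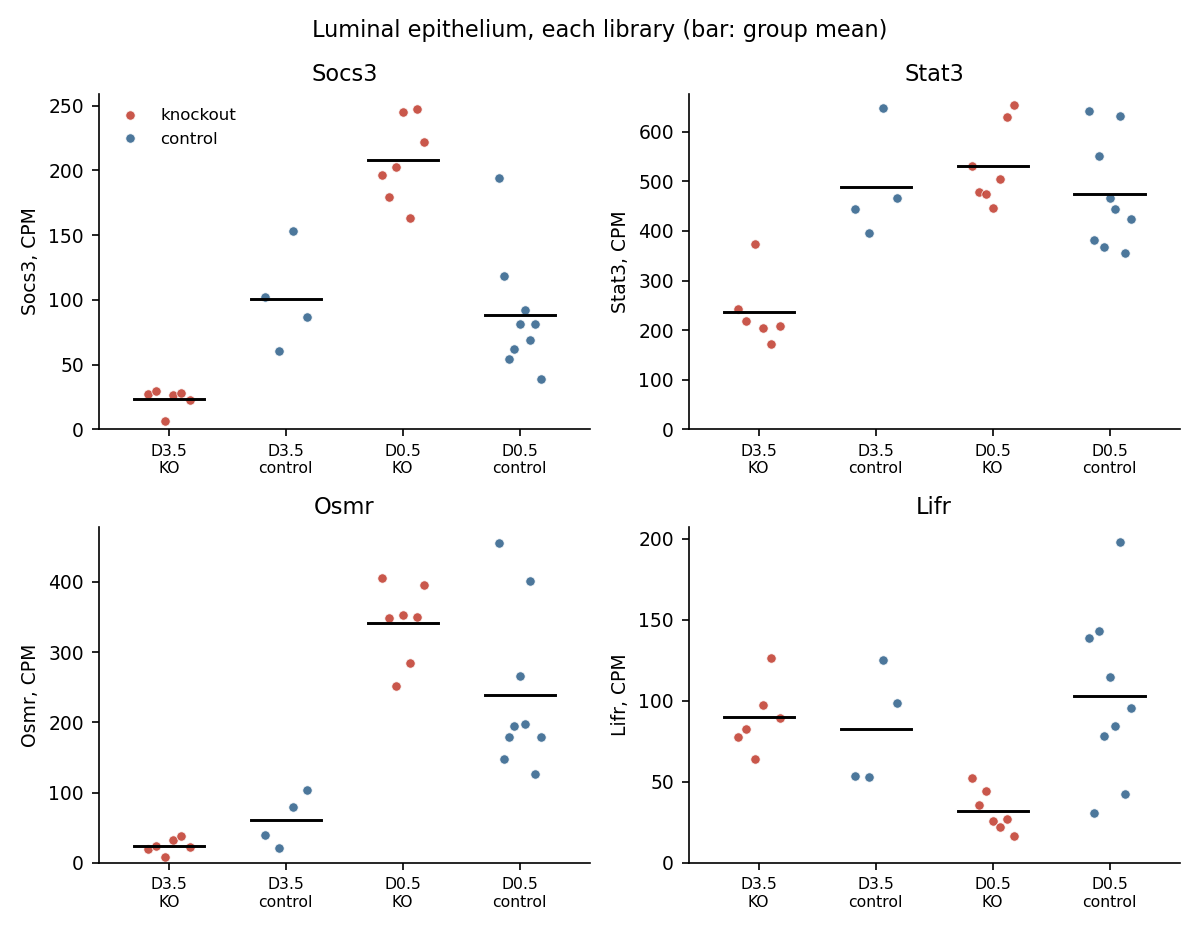
CPM of Socs3, Stat3, Osmr and Lifr in each luminal epithelium library (points) by day and genotype, with bars at group means. At D3.5 the 6 knockouts lie below the 4 controls for Socs3 (6.36 to 29.7 against 60.7 to 153 CPM) and Stat3 (171 to 373 against 396 to 648 CPM), and at D0.5 Lifr is lower and Socs3 higher in knockouts. The genotypes did not overlap for 10% of all genes in luminal epithelium at D3.5.

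Whether the effect of the knockout at D3.5 differed from that at D0.5 was tested as an interaction. It passed for 4 of 10 genes in LE, 1 positive and 3 negative (16.5% of all genes, 9.52% positive and 6.99% negative). In DU 5 of 10 passed, all negative (1.88% of all genes, 0.932% negative), and in U 1 of 10, negative (1.43%, 0.487% negative). Socs3 passed in all 3 tissues (-3.34 ± 0.45 in LE, adjusted p = 1.1e-05; -2.97 ± 0.39 in DU, adjusted p = 0.00534; -2.50 ± 0.40 in U, adjusted p = 0.00434). Stat3 passed in LE (-1.21 ± 0.26, adjusted p = 0.00188) and DU (-1.32 ± 0.18, adjusted p = 0.00534) and missed in U (-0.98 ± 0.25, adjusted p = 0.0596) unless mouse 33 (-1.18, adjusted p = 0.00723) or D3.5 control mouse 14 (-1.07, adjusted p = 0.0415) was left out, or by DESeq2 (adjusted p = 0.0155). Osmr passed in LE (-1.85 ± 0.49, adjusted p = 0.00905). In DU its call (-1.79 ± 0.40, adjusted p = 0.0386) was lost on log2(TPM + 1) (-1.60, adjusted p = 0.0599) and in 10 of 13 refits with 1 library left out (adjusted p 0.0503 to 0.096), and held without control mouse 1 or knockout mouse 26 of D0.5 or knockout mouse 32 of D3.5. In U it passed without mouse 33 (-1.82, adjusted p = 0.00952). Il6st passed in DU (-1.28 ± 0.21, adjusted p = 0.00882), and in LE (-0.80, adjusted p = 0.099) only without D0.5 control mouse 1 or 3 (adjusted p = 0.0478 each). Lifr went the other way in LE (1.80 ± 0.50, adjusted p = 0.0135), a call lost without knockout mice 35, 36 and 37 together (1.54, adjusted p = 0.0776).

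Between the days themselves, 38 of 60 comparisons were called, 32 lower and 6 higher at D3.5, and 46 had an unadjusted p under 0.05. In knockout LE 6 of 10 genes fell and 1 rose, where 20.2% of all genes fell and 21.4% rose (41.6% called). In control LE 3 fell and 1 rose, where 22.8% of all genes fell and 21.2% rose (44%). In knockout DU 7 fell and 1 rose (17.3% and 12.9% of all genes, 30.2% called), and in control DU 5 fell and 2 rose (18.5% and 15.9%, 34.4% called). In knockout U 6 fell and 0 rose (14.6% and 10.9%, 25.5% called), and in control U 5 fell and 1 rose (18% and 16.2%, 34.2% called). Osmr and Il6ra fell in each tissue and genotype. In LE Osmr averaged 24.2 ± 10.4 CPM at D3.5 and 341 ± 55.3 CPM at D0.5 in knockouts (SD; log2 fold change -3.82 ± 0.38), and 61.1 ± 37.4 against 238 ± 115 CPM in controls (-1.97 ± 0.40). Stat3 fell in each group but control LE, and Socs3 in each but control LE and control DU. Stat3 and Socs3 fell in knockout LE (-1.17 ± 0.18 and -3.15 ± 0.34), and in control LE neither passed (0.04 ± 0.19 and 0.19 ± 0.33). Lifr rose in knockout LE (1.48 ± 0.33, adjusted p = 0.000782), where it averaged 89.6 CPM at D3.5 and 32.0 CPM at D0.5, and fell in control DU (-0.85 ± 0.26) and control U (-0.70 ± 0.22). Il6st fell in knockout LE (-1.17 ± 0.23) and knockout DU (-0.70 ± 0.15) and rose in control DU (0.58 ± 0.14). Il11ra1 rose in control LE (1.17 ± 0.23), in control U (0.56 ± 0.18) and in both genotypes of DU. Lif, described above for LE, fell in knockout U (-3.41 ± 0.86, adjusted p = 0.00542) and did not pass in control U (-1.69 ± 0.76, adjusted p = 0.0952). Without mouse 33 the fall was -4.96 in knockout U and -1.71 in control U (adjusted p = 0.0323). Without it Il6st also fell in knockout U (-0.70, adjusted p = 0.0242), and Il11ra1 rose there (0.63, adjusted p = 0.0171).

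Several of the calls between days were lost in refits without 1 library, with fold changes of the same sign. The fall of Il6 in knockout U was lost without D0.5 knockout mouse 27 (-2.39, adjusted p = 0.168), that in control DU without D3.5 control mouse 16 (-4.30, adjusted p = 0.0592), and that in knockout DU without any 1 of mice 25, 27, 32, 34 and 35 (-4.69 to -3.42, adjusted p 0.0563 to 0.095). In LE the difference of Il6 between days missed narrowly in knockouts (-2.53, adjusted p = 0.0599), and it passed without D0.5 control mouse 1 (adjusted p = 0.0152). The fall of Il6ra in control LE was lost without D3.5 control mouse 11 (-0.78, adjusted p = 0.0823). The fall of Lifr in control DU was lost without mouse 5, 14 or 16 (-0.83 to -0.74, adjusted p 0.0571 to 0.0905), and that of Stat3 in control DU without mouse 14 (-0.41, adjusted p = 0.0642). The fall of Socs3 in control U was lost without any 1 of control mice 8, 9, 11, 12, 13 and 14 (-0.76 to -0.64, adjusted p 0.0544 to 0.0821). The rise of Il11ra1 was lost in control U without mouse 1, 2, 14 or 16 (0.44 to 0.51, adjusted p 0.0542 to 0.0695) and in knockout DU without mouse 25, 26, 32, 34 or 35 (0.53 to 0.66, adjusted p 0.0537 to 0.109). In control DU, Lif passed as lower at D3.5 without D0.5 control mouse 9 (-1.71, adjusted p = 0.00856), and Socs3 without D0.5 knockout mouse 26 (-0.65, adjusted p = 0.03). Il6st in control LE passed without D3.5 control mouse 16 (-0.67, adjusted p = 0.043).

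**Figure D5:**
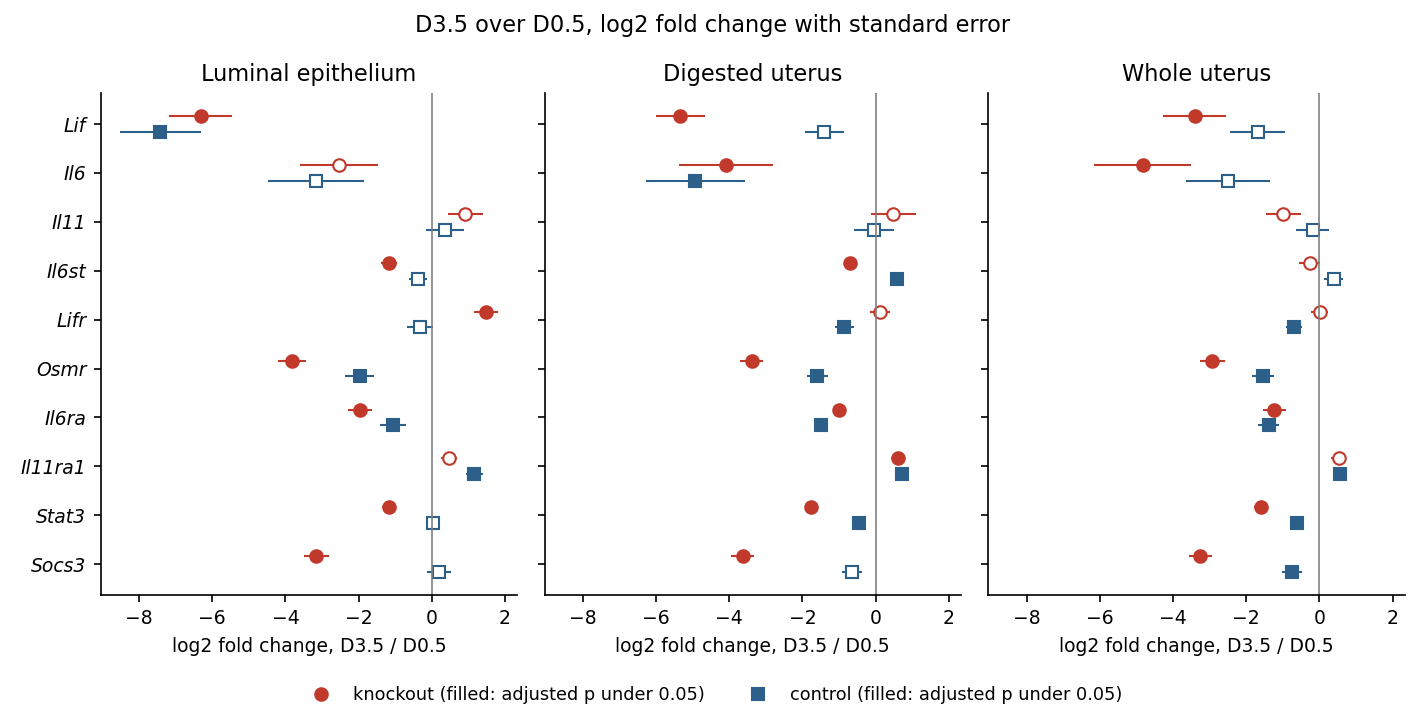
Log2 fold change of D3.5 over D0.5 for the 10 genes (points) with its standard error (lines) in knockouts and controls of each tissue, filled where adjusted p was under 0.05. Lif lies near -6.31 in knockout and -7.42 in control luminal epithelium, while Stat3 and Socs3 lie left of 0 in knockout luminal epithelium and near 0 (0.04 and 0.19) in control luminal epithelium.

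Whether the knockout effect differed between LE and U was tested in a joint fit, and 0 of 20 tests passed in edgeR, against 3.86% of all genes at D3.5 and 1.63% at D0.5; 3 of the 20 had an unadjusted p under 0.05. For Lif at D3.5 the knockout effect was 2.70 ± 1.22 higher in LE than in U (adjusted p = 0.252). It passed with the mouse as a block (3.84, adjusted p = 0.0264) and without U knockout mouse 33 (4.27, adjusted p = 0.0332). Voom called 1 of the 20 tests, Il6ra at D0.5 (1.11).

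In the wider pathway, Osm, which encodes oncostatin M, was the ligand gene that rose most widely at D0.5. Of 11 gp130 ligand genes tested, 2 rose and 0 fell in knockout LE at D0.5 (10.9% and 12.6% of all genes rose and fell). Osm averaged 44.9 CPM in knockouts and 4.38 CPM in controls (log2 fold change 3.35, adjusted p = 0.00156), and Ebi3, a subunit shared by IL27 and IL35, averaged 2.97 and 0.423 CPM. Osm also rose in knockout DU (33.8 against 5.08 CPM) and U (37.1 against 5.61 CPM) at D0.5. The neutrophil marker sums given above moved with these results, and their part was not tested. In DU and U at D3.5 none of the 11 passed.

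Of 20 genes known as STAT3 targets, 1 rose and 7 fell in knockout LE at D3.5, with a median log2 fold change of -0.63 against -0.01 for all genes (7.79% of all genes rose and 5.7% fell). Gadd45g, a growth arrest gene, averaged 27.9 CPM in knockouts and 134 CPM in controls (-2.27, adjusted p = 1.88e-05), Timp1, an inhibitor of matrix proteases, 1.67 and 10.5 CPM (-2.64), and Bcl3, a co-regulator of NF-kB, 18.3 and 103 CPM (-2.49). At D0.5 in LE 7 of the 20 rose and 2 fell (median 0.39), where 10.9% of all genes rose and 12.6% fell. Icam1, a leukocyte adhesion gene, averaged 1205 CPM in knockouts and 196 CPM in controls (2.62), and Batf, a leukocyte transcription factor, 13.6 and 0.511 CPM (4.72), while Timp1 was lower at 11.9 and 31.8 CPM (-1.41). In DU at D0.5 7 rose and 0 fell (3.89% and 4.17% of all genes), and in U 5 rose and 0 fell (2.02% and 2.96%). The neutrophil marker sums given above were higher in the same D0.5 knockout libraries, and their part in these rises was not tested. At D3.5 in DU 0 rose and 2 fell (0.117% and 0.457%), the acute phase genes Lrg1 (5.97 CPM in knockouts, 56.7 CPM in controls) and Hp (0.768 and 17.1 CPM), and in U none passed. The day dependence of the knockout effect passed for 11 of the 20 in LE, 10 of them with a negative sign (16.5% of all genes, 6.99% negative). At D3.5 in LE 5 of 14 immediate early genes were also lower in knockouts, where 5.7% of all genes were; Junb and Fos are on both lists. The summed immediate early level was 1245 to 3160 CPM in knockouts against 1871 to 5785 CPM in controls, with control mice 11 and 15 at 5785 and 4681 CPM; its part was not tested. Without those mice Socs3 (-1.65, adjusted p = 0.0179) and Stat3 (-0.86, adjusted p = 0.0367) in LE at D3.5 kept their calls, and Osmr lost its call (-1.37, adjusted p = 0.0816).

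Among 13 inhibitor genes in LE at D3.5, 2 fell and 1 rose, where 5.7% of all genes fell and 7.79% rose. Socs2 fell beside Socs3 (14.7 CPM in knockouts, 50.7 CPM in controls, -1.79) and Socs6 rose (57.5 and 33.6 CPM, 0.78). At D0.5 in LE 4 of the 13 rose and 1 fell, where 10.9% of all genes rose and 12.6% fell. The phosphatase genes Ptpn6 (63.8 CPM in knockouts, 28.4 CPM in controls) and Ptpn2 (70.3 and 36.9 CPM) and the inhibitor gene Socs1 (25.2 and 8.58 CPM) had the smallest adjusted p. Of 7 JAK and STAT genes, 1 rose and 2 fell in knockout LE at D0.5, and 0 rose and 2 fell at D3.5. Jak1, the main kinase on gp130, rose in knockout LE at D0.5 (253 against 142 CPM, 0.83) and fell at D3.5 (152 against 219.9 CPM, -0.54). Of 8 genes linked to LIF action in the epithelium, 2 fell in knockout LE at D3.5. They were Coch, a secreted matrix gene (0.660 CPM in knockouts, 890.3 CPM in controls, adjusted p = 2.37e-10), and the EGF family gene Areg (16.9 and 88.3 CPM, adjusted p = 0.0061). For Coch at D0.5, the knockout effect in LE less that in U was -5.28 ± 0.70 (adjusted p = 6.16e-06 in the joint fit). The interaction of genotype and day for Coch in LE was -5.50 ± 0.80 (adjusted p = 2.68e-05). The part of Lif in the Coch results was not tested.

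Over the 12 group means, the gene most like Stat3 was Sbno2 (Pearson r = 0.986), followed by Rel and Tpbg (both 0.95), Sdcbp (0.949) and Antxrl (0.946). For Socs3 they were Hmox1 (0.94), Bcl3 (0.937), Csrnp1 (0.925), Il4ra (0.924) and Tgm1 (0.921). For Lif they were Gbe1 (0.955), Capza1 (0.954), Edem1 (0.952), Lrg1 (0.95) and Gda (0.948). These are descriptions among 11918 genes with at least 10 CPM in their highest group; the 12 points share mice across tissues and the contrast of the days, which moves many genes.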

How the data were processed

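RNA-seq of 59 libraries was analysed from 2 deposited tables. Per the submitters' processing notes the tools included kallisto 0.46.1 and the build GRCm39; the sum of transcripts to genes and its annotation were not given in the sources used here. Estimated counts per gene, as deposited by the authors, were rounded to whole numbers. The TPM values, as deposited by the authors, were used for levels per length and for 2 alternative fits. Each tissue was fitted on its own, and tissue pairs jointly, after TMM scaling, using edgeR 4.0.16 (R 4.3.3) and its quasi-likelihood test (Benjamini-Hochberg adjustment over all genes tested, called at adjusted p under 0.05). Genes passed filterByExpr (minimum count 10, total 15), which left 15601 genes in LE, 16194 in DU and 16232 in U. The fits were tested on simulated data. A standard error is the log2 fold change divided by the root of its F value. Values after ± are standard errors beside fold changes.

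Alternatives used limma 3.58.1 and DESeq2 1.42.0 and are given with the results they change. Same-numbered libraries of several tissues come from the same mouse. Their deviations from the group means correlated with a median r of 0.252 for LE and U (17 mice), 0.314 for DU and U (13) and 0.138 for LE and DU (13). Those pairs share the animal, and the mouse was a block in an alternative. The 10 genes and the gene lists were chosen with earlier results of these data known; from each further list at most 3 called genes of smallest adjusted p were named per comparison described. Levels compare genes only as TPM. One result among the ligand genes in LE at D3.5 is not reported here.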

Additional observations from a re-analysis of the deposited data

Results flagged for a closer look

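Of 90 groups of 4 to 10 libraries checked (Dixon's test at 95%), 12 had a library far from the rest. The chance rate of 5% of groups holds for independent, normally distributed values. These were CPM without a log, and groups share mice, so the count cannot be set against that rate. In U at D3.5, knockout mouse 33, whose Esr1 lay above that of its controls, stood high for Lif (41.21 CPM), Il6st (1074 CPM), Stat3 (288.6 CPM) and Osmr (62.89 CPM). In LE at D3.5, knockout mouse 34 stood high for Stat3 (373.4 CPM) and low for Socs3 (6.363 CPM). In U at D3.5, control mouse 16 stood high for Socs3 (85.47 CPM). For Il6, control mouse 1 of D0.5 stood high in all 3 of its tissues, at 49.45 CPM in LE, 10.2 CPM in DU and 6.159 CPM in U. Il6 also stood high in U in knockout mouse 27 of D0.5 (11.16 CPM) and control mouse 14 of D3.5 (0.7343 CPM).

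The effect of the knockout on the log2 scale differed between D3.5 and D0.5 by the interaction test in 10 cases. In LE the differences were -3.344 for Socs3, -1.852 for Osmr, -1.211 for Stat3 and 1.802 for Lifr. In DU they were -3.936 for Lif, -2.975 for Socs3, -1.792 for Osmr, -1.319 for Stat3 and -1.278 for Il6st. In U the difference was -2.498 for Socs3.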

How the results depend on the processing

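No direction called by edgeR was reversed under any setting tried. At the level of single genes, 58 of the values under other settings gained a call and 54 lost one. The other 1414 had the same outcome, which includes values called in neither fit. Of the genes called between genotypes, 1 in U became 7 by voom and 3 without knockout mouse 33; over all genes, those counts in U were 1439 by voom, 112 without mouse 33 and 3 with all libraries by edgeR at D3.5, and 2257, 871 and 809 at D0.5. For the knockout effect by day in U, 1 became 2 by DESeq2, 4 by voom and 3 without mouse 33 (all genes 232, against 523, 1029 and 294), and in DU 5 became 3 on log2(TPM + 1). For the days in U, 12 became 7 on either TPM scale, and between LE and DU 8 became 3 on either. With the replicate block by mouse, 0 became 6 between DU and U (voom 2), and 0 became 1 for the knockout effect in LE against U (voom 1). The block also ended the calls named above for Il11 and Osmr and changed no other call between tissues. Leaving out 1 library gave 3 to 7 calls between genotypes in DU (6 with all), 1 to 3 in U (1 with all), 3 to 5 for the effect by day in DU, 1 to 3 in U, and 0 to 1 for LE against U. Apart from what is built into each setting, the cause of these changes was not tested. Depth limits Il11, with at most 139 estimated counts in any library, and Il6 at D3.5, with at most 65.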
